A study of Drosophila melanogaster with 13 samples.

Results

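The 396 sites described here were bound regions that the FLAG antibody found in flies with wild-type Pita and that no other list used in choosing them contained. They were chosen by presence in the deposited lists, as peaks of the Pitawt FLAG list that shared not even 1 bp with a peak of the Pitawt Pita, PitaΔZ FLAG or PitaZ276 FLAG lists. They made up 22.1% of the 1792 peaks of the Pitawt FLAG list, against 6204 peaks in all 6 deposited lists. The assay was ChIP-seq, sequencing of the DNA that an antibody pulls down with its chromatin. Whole Drosophila melanogaster adults of 2 to 3 days were used, so every tissue of the fly contributed chromatin. All samples were fixed in 1% formaldehyde for 15 min. The PitaΔZ line (genotype y1w1118; pita1attP PitadeltaZ) carried Pita without its ZAD. The PitaZ276 line (pita1attP PitaZ276) carried the ZAD-like domain of human ZFP276 in that place, and the Pitawt line (pita1attP Pitawt) carried the wild-type protein. All 3 lines shared the pita1attP allele. A FLAG antibody, which reads the tag, was used in every line along with an antibody against Pita, with 2 libraries for each of these 6 combinations. A single preimmune library, made from Pitawt flies, is named as the background of every list. Each line and antibody gave 1 deposited list with no read counts, so depth is unknown, and no spread between the labelled libraries is given.

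Pita is a zinc-finger protein of Drosophila that binds DNA at insulators and boundaries, and it is an architectural protein because it helps to hold distant chromatin sites in contact. Its ZAD, the zinc finger-associated domain at the start of the protein, pairs with another ZAD, while the zinc fingers read DNA. A site called by the tag antibody and not by the protein antibody in the same flies is called by only part of the assay. Here "absent" means that no peak was listed, since a list states nothing of signal below its threshold.

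The Pitawt Pita list removed most peaks. Of the 1792 Pitawt FLAG peaks, 63.8% met a Pitawt Pita peak, which left 649. A PitaΔZ FLAG peak met 37.3% of the 1792 and a PitaZ276 FLAG peak met 62.1%. Among the 649, the PitaZ276 FLAG list alone removed a further 170, whereas the PitaΔZ FLAG list alone removed 4. The PitaZ276 FLAG list had 1243 peaks and the PitaΔZ FLAG list 685, and their cut-offs differ, as given below. These shares and counts therefore do not compare the lines. The other Pitawt FLAG peaks fell into 3 classes by the same lists. These were 253 FLAG-only sites present in an altered FLAG list, 278 sites called with both antibodies and absent from the altered FLAG lists, and 865 sites called with both antibodies and present in at least 1 altered FLAG list.

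These sites were weak within the list that holds them. Their fold enrichment, the authors' ratio of signal to background at a peak, ran from 2.94 to 13.3 with a median of 5.17. The medians were 7.22 in the FLAG-only sites present in an altered list, 8.56 in the absent sites called with both antibodies and 22.4 in those called with both and present. A fold of 8 or more was reached by 17 of the 396 and a fold of 10 or more by 3. Ranked by p-value, the best of them stood at 752 of 1792 and the median at 1528. Peak width had a median of 640 bp, against 1173 bp for the other 1396 Pitawt FLAG peaks. Because the choice used presence in these lists, the values are a description and no test was made.

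**Figure D1:**
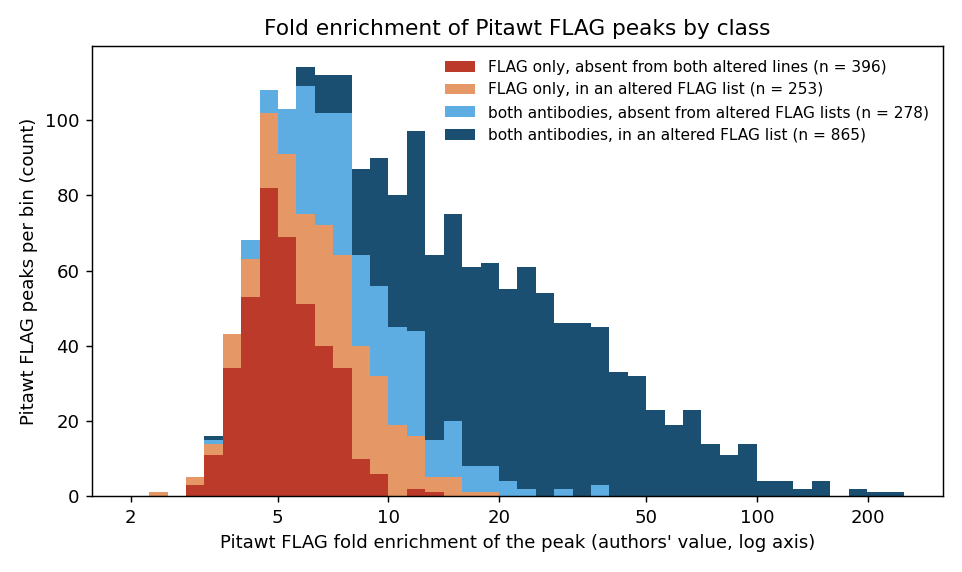
Stacked histogram of the authors' fold enrichment (log axis) of all Pitawt FLAG peaks, with the number of peaks per bin on the vertical axis and 1 colour per class. The 396 FLAG-only sites absent from both altered lines lie between 2.94 and 13.3, while the 865 sites called with both antibodies and present in an altered list reach 227.

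Like every peak of such a list, the sites were present in both of the joined peak lists behind the Pitawt FLAG list. Their −log10 p ran from 14.0 to 109, with a median of 25.4, in the first joined list, and from 14.6 to 115, with a median of 27.5, in the second. The 2 values lay within a factor of 2 of each other at all 396 sites, as they did at all other 1396 peaks. The first value was the higher at 163 of the 396 sites and at 714 of the other 1396. The joined summits lay within 100 bp of each other at 371 sites (93.7%), with a median distance of 24 bp, and at 96.4% of the other peaks, with a median of 12 bp. Across the sites the joined values had a Spearman rho of 0.868, against 0.985 across the other peaks, whose range is far wider. The −log10 of the irreproducible discovery rate (IDR), a measure of how well ranks match between joined lists, ran from 2.00 to 4.10. Its lowest value was 2.00 in the whole Pitawt FLAG list and 2.01 in PitaΔZ FLAG. In PitaZ276 FLAG it was 1.31 and in Pitawt Pita 1.30, so these 2 lists were cut less strictly by IDR. By other measures Pitawt Pita had higher floors than Pitawt FLAG. Its lowest fold was 4.31 against 2.37, its lowest −log10 p 15.1 against 14.0 and its lowest −log10 q 12.7 against 11.8. The Pitawt FLAG fold of 83 of the 396 sites was below 4.31, although folds of different lists need not share a scale. The sources do not say whether the joined lists are separate libraries.

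**Figure D2:**
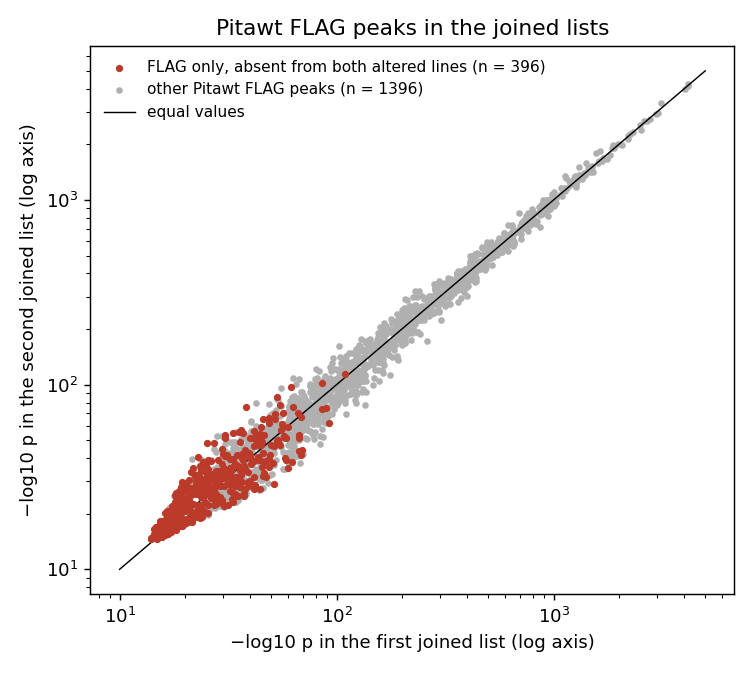
Each point is 1 Pitawt FLAG peak, placed by its −log10 p in the first joined list (horizontal, log axis) and in the second (vertical, log axis), and the line marks equal values. The 396 FLAG-only sites absent from both altered lines sit at the low end, from 14.0 to 109 in the first list, and follow the line.

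The lists that the choice did not use held almost none of the sites. A PitaΔZ Pita peak met 3 of the 396 (0.758%, exact 95% interval 0.157 to 2.20), whereas 41.1% of all Pitawt FLAG peaks were met. Other matching rules also changed which peaks counted as sites, so their shares are not of the same 396. The share was 12 of 455 (2.64%, 1.37 to 4.56) when matches required summits within 100 bp. It was 8 of 522 (1.53%) with 50% reciprocal overlap and 7 of 573 (1.22%) with a −log10 IDR of at least 2 in every list. A PitaZ276 Pita peak met 1 (0.253%, 0.00639 to 1.40), against 26.5% of all Pitawt FLAG peaks, and under those rules the share lay between 0% and 0.440%. The PitaZ276 Pita list was itself uneven, since its 492 peaks had joined −log10 p values with medians of 16.8 and 537 and a Spearman rho of 0.586 between them. For the FLAG-only sites present in an altered FLAG list the shares were 41.5% (35.4 to 47.8) and 9.49% (6.17 to 13.8). For the absent sites called with both antibodies they were 0.360% (0.00911 to 1.99) and 0 of 278, with an upper bound of 1.32%. The intervals are exact Clopper-Pearson intervals and cover counting error only. Lines were not tested against each other, because each has a single list per antibody. The PitaΔZ Pita and PitaZ276 Pita lists come from the same flies as the FLAG lists of their lines. The choice required those FLAG lists to have no peak at a site, so the low shares are not independent of it. The other classes were also defined by those FLAG lists, so their shares, high or low, are not independent of it either. All Pitawt FLAG peaks had a median fold of 10.5, against 5.17 for the sites, and shares at matched fold were not computed.

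The 4 sites met were at different strengths in the wild type. The site 164 bp from drd, a gene named for the early death of its mutants, had a Pitawt FLAG fold of 7.33 and overlapped a PitaΔZ Pita peak of fold 5.00, rank 658 of 797. A second lay between genes 208 bp from an end of ptc, which encodes the Hedgehog receptor Patched (dm6, 2R:8665115 to 8666256). It had a Pitawt FLAG fold of 4.02, and the PitaΔZ Pita peak there had a fold of 6.42 and stood at rank 572. The third, 735 bp from lncRNA:CR46253 on 2L, stood at a fold of 4.48 in Pitawt FLAG and of 6.63 in PitaΔZ Pita. A fold belongs to its own list, and none is compared with that of another line.

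The site met by PitaZ276 Pita lay inside the Hox gene Abd-B, which sets the identity of the posterior abdomen (3R:16958373 to 16959150). Its Pitawt FLAG fold was 8.24 and its −log10 p was 43.6 and 47.6 in the joined lists. A Pitawt FLAG peak of fold 21.8, also called with the Pita antibody, ended 266 bp before it at 16958106. The PitaZ276 FLAG peak of this stretch lay over that neighbour (16957852 to 16958102, fold 6.17), while the PitaZ276 Pita peak lay over the FLAG-only site (16958479 to 16959034, fold 4.25). In the joined lists of PitaZ276 Pita that peak had −log10 p of 8.83 and 424, uneven like the whole of that list. A further site lay between abd-A and Abd-B, with its summit inside the transcripts lncRNA:iab4 and lncRNA:iab8 and the gene MSAmiP, at a fold of 5.17 (3R:16851707 to 16852233).

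The gaps from the sites to FLAG peaks of the altered lines are a description, because the choice kept only sites that met none of these peaks. They were not computed for the other Pitawt FLAG peaks, so they do not tell whether the sites lay unusually far. The median gap to the nearest PitaΔZ FLAG peak was 40.6 kb and to the nearest PitaZ276 FLAG peak 20.2 kb, with 319 and 261 of the 396 sites more than 10 kb away. The lists differ in length, and a longer list lies closer by number alone. A peak of the 3 lists used in the choice lay within 1 kb of 36 sites. Closest to the limit was a site inside prage, 7 bp from a PitaZ276 FLAG peak (X:1822428 to 1823359, fold 5.98). The next 2, at lncRNA:CR46004 and inside pelo and CG31710, lay 228 and 259 bp from PitaZ276 FLAG peaks. On the other side of the limit, peaks inside daw and C3G overlapped PitaZ276 FLAG peaks by 93 and 99 bp, with Pitawt FLAG folds of 3.77 and 3.89.

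**Figure D3:**
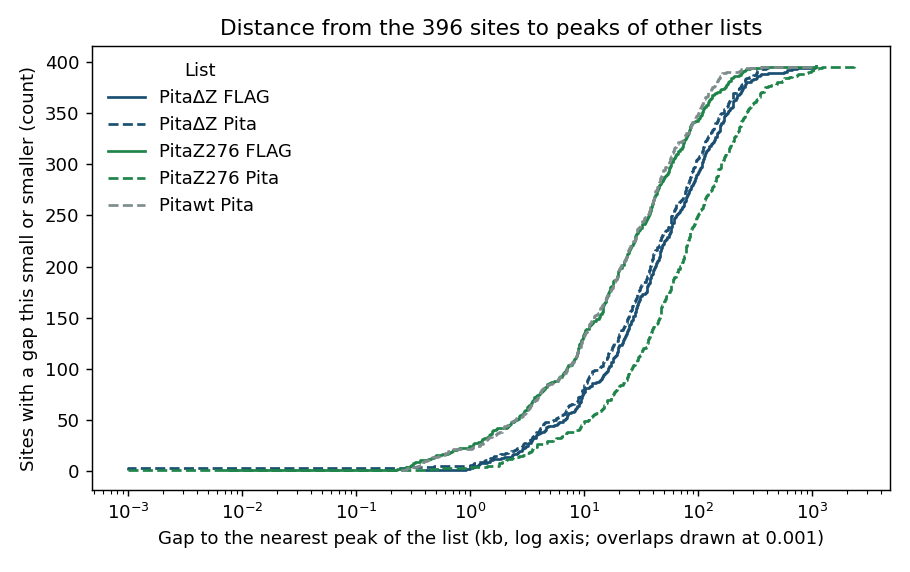
Cumulative count of the 396 sites (vertical axis) by the gap to the nearest peak of each other list (horizontal, kb, log axis, with overlaps drawn at 0.001 kb). The curves for PitaZ276 FLAG and Pitawt Pita run together, with medians of 20.2 and 20.4 kb, and those of the other 3 lists lie farther to the right.

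Other Pitawt FLAG peaks were often near. Within 10 kb of 207 of the 396 sites (52.3%, 47.2 to 57.3) lay another peak of the same list, against 37.7% of the other Pitawt FLAG peaks (35.2 to 40.3). When the list was cut by fold into 5 bins of 358 or 359 peaks, the share in the weakest bin was 50.0% for the sites and 50.0% for the other peaks. In the next bin it was 57.7% (48.5 to 66.6) for the sites and 36.1% (29.9 to 42.6) for the others. Sites called with both antibodies and present in an altered list are only part of the Pitawt FLAG list. The median gap to the nearest of them was 33.3 kb, and 99 of the 396 sites had one within 10 kb. This gap was not computed for the other Pitawt FLAG peaks. Sites fell into 12 runs of 3 or 4 with gaps of at most 20 kb, 34 pairs and 290 single sites. Runs were not built for the other classes of peak, so these counts do not tell whether the sites cluster more than other peaks. Both runs of 4 held no other Pitawt FLAG peak. One, on 2L, covered frj, Rchy1, a ubiquitin ligase gene with 2 of the sites, and Sec61alpha, a subunit of the protein channel of the endoplasmic reticulum. The other, on X, covered COX6B, Alr and Abcd3, with folds from 3.91 to 7.68.

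Most of the sites lay inside genes. A summit inside a gene was found for 329 of the 396 (83.1%, 79.0 to 86.6), against 64.3% of all Pitawt FLAG summits and 70.1% of the bases between the outermost genes of each chromosome. For the FLAG-only sites present in an altered FLAG list the share was 70.2% (64.2 to 75.8). Among sites called with both antibodies it was 82.7% (77.8 to 87.0) for those absent from the altered FLAG lists and 48.0% (44.6 to 51.4) for those present. Within 500 bp of either end of a gene lay 183 sites (46.2%, 41.2 to 51.3), against 55.6% of all Pitawt FLAG summits and 18.1% of those bases. The FLAG-only sites present in an altered FLAG list had 59.5% (53.2 to 65.6). The classes called with both antibodies had 33.8% (28.3 to 39.7) when absent from the altered FLAG lists and 65.8% (62.5 to 68.9) when present. The nearest gene of these 183 sites was protein-coding in 92.9%, against 93.8% over the whole Pitawt FLAG list. Strand and exons were not used here, so starts and ends of genes are not told apart, nor introns from exons.

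**Figure D4:**
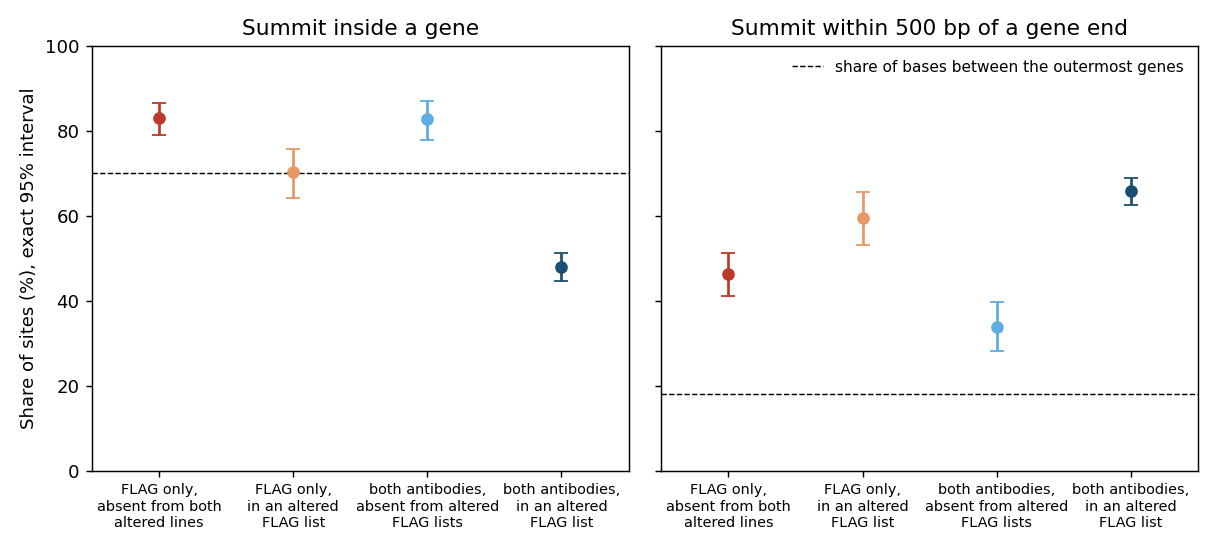
Share of summits (vertical axis, percent, with exact 95% intervals) inside a gene, left, and within 500 bp of a gene end, right, for the 4 classes of Pitawt FLAG peak. The dashed line is the share of bases between the outermost genes, 70.1% and 18.1%, and the FLAG-only sites absent from both altered lines stand at 83.1% and 46.2%.

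Across the other Pitawt FLAG peaks, the share of summits inside a gene was 37.0%, 53.9% and 70.0% in the upper 3 bins by fold, strongest first, then 77.7% and 74.5% in the lower 2. The sites made up 260 of the 359 weakest Pitawt FLAG peaks (72.4%, 67.5 to 77.0), 123 of the next 358, 13 of the middle 358 and none of the strongest 717 in the upper 2 bins. In the weakest bin, with folds of 2.37 to 5.71, 87.3% of the sites (82.6 to 91.1) and 74.5% of the other peaks (64.7 to 82.8) had a summit inside a gene. In the next bin the shares were 74.8% (66.2 to 82.2) and 77.7% (71.8 to 82.9). Near a gene end lay 42.3% of the sites (36.2 to 48.6) and 51.0% of the others (40.7 to 61.3) in the weakest bin, and 54.5% (45.2 to 63.5) and 42.9% (36.5 to 49.5) in the next. The intervals of the sites and of the other peaks overlapped in both bins for both measures, but only narrowly inside genes in the weakest bin. Overlap of intervals does not show that shares are equal, and the differences were not tested.

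**Figure D5:**
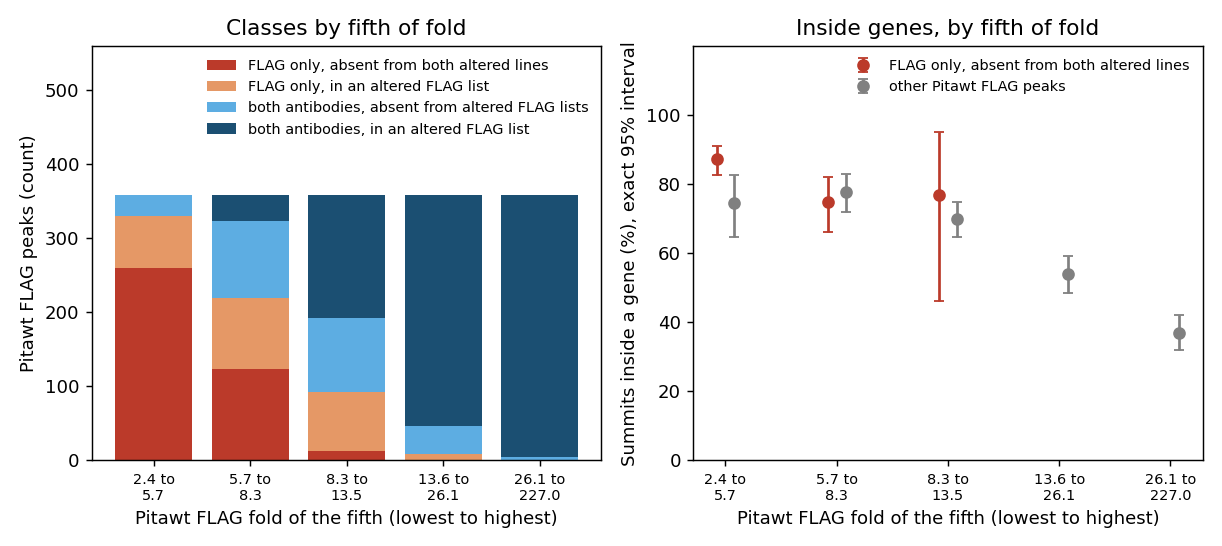
Left, number of Pitawt FLAG peaks of each class in each of the 5 bins by fold, lowest folds first; right, share of summits inside a gene (percent, exact 95% intervals) for the FLAG-only sites absent from both altered lines and for the other peaks. The sites fill 260 of 359 places in the weakest bin and none in the 2 strongest.

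The strongest site lay inside CG10910 on 2R (18020108 to 18021128), with a fold of 13.3 and −log10 p of 92.4 and 62.0 in the joined lists. A second site of fold 7.73 lay in the same gene. The next, inside Pex5, the import receptor of peroxisomes, and CG14803 (X:1868582 to 1869844), had a fold of 11.9 and −log10 p of 109 and 115. The site inside Smyd3, a gene of the SET and MYND domain family of lysine methyltransferases, had a fold of 11.4 and −log10 p of 86.1 and 74.0. These 3 were the sites with a fold over 10.

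Others among the strongest 12 touched genes of many functions. The site inside fu, which encodes the Hedgehog pathway kinase Fused, lay 32 bp from its end with a fold of 9.60. A site shared by gammaSnap1, a membrane fusion factor, and sei, a potassium channel gene, had 9.02. Aldh-III, an aldehyde dehydrogenase gene, held a site with a fold of 8.92, and −log10 p of 61.4 and 97.5. A site inside the eye development gene ey, a Pax6 gene on chromosome 4, had 8.44 and lay 6936 bp from the nearest gene end. The site with a fold of 8.46 lay inside Stacl, and that with a fold of 9.60 nearest to Cyp6t1 lay inside lncRNA:CR45082. The other 3 lay between genes, nearest to lncRNA:CR44652, lncRNA:CR45759 and lncRNA:CR46226, with folds of 9.77, 9.14 and 8.65. On 2L the strongest site was inside CG16798, with 7.94. At the low end, sites inside ASPP, nmo, a kinase gene, and bgcn with Pym had folds of 3.15, 3.04 and 2.94.

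The gene pita itself held 2 of the sites. These lay at the end of the gene away from its other peak, at 2R:23553922 to 23554190 with a fold of 7.95 and at 2R:23554545 to 23554840 with a fold of 5.29. Their −log10 p was 68.6 and 41.5 for the first and 32.2 and 33.7 for the second. The summit of the second lay 14 bp inside pita from that end. The other Pitawt FLAG peak of the gene, at 23549945 to 23551003 with a fold of 11.8, was called in both PitaΔZ lists, in PitaZ276 FLAG and in Pitawt Pita. No list but Pitawt FLAG had a peak over either of the 2 sites. The lists do not tell which copy of the pita sequence gave the reads, in lines whose labels all name the pita1attP allele.

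Besides pita, 18 annotated genes held 2 of the sites each, and none held more. Among them, picked here after their values were seen, were Atpalpha, the catalytic subunit of the sodium pump, with folds of 5.23 and 4.94, and hid, a pro-apoptotic gene, with 5.44 and 4.98. Further examples were Csp, a chaperone gene of synaptic vesicles, with 7.14 and 4.58, boi, a Hedgehog co-receptor gene, with 6.53 and 5.39, and Acsl, a fatty acid activating enzyme gene, with 5.30 and 5.17. Fpgs1 and asRNA:CR45621, also among the 18, both held the same 2 sites. The genes with 2 sites, pita included, thus held 36 of the 396 sites. Host genes had a median length of 6230 bp, taking the longest where a summit lay in several. The hosts of the other classes had medians of 5896 bp for FLAG-only sites present in an altered list, 7574 bp for absent sites called with both antibodies and 9990 bp for those called with both and present. Of the 329 sites inside genes, 30 shared a host gene with a site called with both antibodies and present in an altered list. This count was not made for the other classes, so it does not tell whether sharing was rare.

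In all, 481 of 17684 annotated genes (2.72%) had 1 of the sites inside or within 500 bp of an end, and other Pitawt FLAG summits reached 9.37%. Among protein-coding genes the shares were 3.20% (445 of 13922) and 11.1%. Each list of genes looked at had 0 to 3 reached genes, and none is read as particular to the sites. Genes of the cytosolic ribosome had 2 of 92 (RpS14b and RpL37-1), against 23 of 92 (25.0%) reached by other Pitawt FLAG summits. With clock genes, that was the highest share reached by other summits among the gene lists. The RpS14b site also lay 29 bp from Ubr3, a ubiquitin ligase gene, and had a fold of 7.87. The site near RpL37-1 was the one named above for drd. Genes of the mitochondrial ribosome had 1 of 73 (mRpL18, fold 4.99). Oxidative phosphorylation had 3 of 87, with the complex I genes ND-MWFE (5.43) and ND-15 (4.22) and the cytochrome oxidase gene COX6B (3.91). The proteasome had 2 of 48, the catalytic subunit gene Prosbeta5 (6.89) and the deubiquitinase gene Rpn11 (5.87). Translation factors had 0 of 52, replication-dependent histones 0 of 111 and heat shock genes 0 of 23.

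Among regulators, signalling genes had 3 of 35, arm, the fly β-catenin (fold 7.23), chico, the insulin receptor substrate (5.19), and ptc. Architectural proteins had 1 of 26, pita. A site of fold 4.66 inside pst lay within 2 kb of the insulator gene CTCF and was the only peak of any list there. Replication origin factors had 1 of 18 (Orc5, 4.78, a site whose summit lay inside Arpc1), Polycomb and trithorax genes 1 of 22 (Caf1-55, a histone chaperone gene, 6.24) and Hox and segmentation genes 1 of 25 (Abd-B). Within 2 kb of Orc4, su(Hw), Cp190, Ubx and abd-A no such site was found. Genes of nuclear tRNAs had 2 of 295, both reached by 1 site of fold 6.88, and those of snRNAs and snoRNAs 1 of 289.

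Marker genes of tissues gave counts of 0 or 1 per list. Muscle had 1 of 17 (Tm1, a tropomyosin, fold 3.52), photoreceptors 1 of 15 and germline 1 of 15 (bgcn). The photoreceptor gene was norpA, the phospholipase C of vision, with sites of fold 7.11 and 6.09. Neuronal markers had 0 of 17, fat body and gut markers 0 of 14, axon guidance and adhesion genes 0 of 38 and clock genes 0 of 12. With lists of this length, a share near 2.72% gives 0 or 1 genes, so the counts do not rank tissues.

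The sites were spread over the chromosomes much like the other peaks. Their shares were 17.7% on 2L, 22.2% on 2R (18.2 to 26.6), 21.0% on 3L, 19.7% on 3R and 18.9% on X, with 2 sites on 4. The other Pitawt FLAG peaks had 18.8%, 18.4% (16.4 to 20.6), 20.0%, 23.3% and 18.9%. No site lay outside these chromosomes, where the Pitawt FLAG list had 7 peaks.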

How the data were processed

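The authors deposited 6 peak lists of 20 columns, a list for every combination of line and antibody. The build was dm6 per the submitters' processing notes, which name MACS2, Bowtie2, cutadapt, bedtools, Picard and deepTools with no order or version. Column 7 of the deposited lists was read as fold enrichment, a ratio made by the authors' peak caller. Other deposited columns were read as −log10 p, −log10 q and −log10 of the IDR, the last used as a score. The files have no header, so these readings rest on layout and values. Each list joins a pair of peak lists into a single set.

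From these, overlaps of 1 bp, gaps, ranks and positions relative to the 17684 genes of the RefSeq Release 6 table were computed in Python 3.11.15 with numpy 2.4.6, pandas 2.3.3 and scipy 1.17.1; figures used matplotlib 3.10.9. Overlap and distance code was tested on simulated data. Sites and gene lists were chosen with earlier results of these data known. Named sites are the 12 highest and 3 lowest folds, the highest per chromosome, those met by the other Pita lists, those at 8 fixed genes, up to 4 per gene list, and runs of neighbours; the gene whose end lies closest gives each its name. A planned motif search was not run, as no sequence was used here. No test over samples was made, since the joined values are not tied to labelled libraries.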

Additional observations from a re-analysis of the deposited data

How the results depend on the processing

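Alternatives left the number of sites between 348 and 573. With a −log10 IDR of at least 2 in every list it was 573, and with 50% reciprocal overlap 522, since both remove matches. The 396 sites remained among them. The IDR limit removed peaks only from lists that reach below 2, PitaZ276 FLAG and Pitawt Pita among them. When peaks within 500 bp counted as shared, 372 remained, and with a fold of at least 4, 348. The median fold was 5.49 with 50% reciprocal overlap, 5.55 with the IDR limit and 5.30 with the fold limit. The share met by PitaΔZ Pita was 2.64% of 455 sites when summits within 100 bp were required. For PitaΔZ Pita it was 1.53% of 522 sites with 50% reciprocal overlap and 1.22% of 573 with the IDR limit. The share met by PitaΔZ Pita was 0% when sites had to miss all 5 other lists, by construction, as was the share met by PitaZ276 Pita. PitaZ276 Pita met 0% of 372 sites with the 500 bp rule, with an exact 95% upper bound of 0.987%, and 0% of 573 with the IDR limit, with a bound of 0.642%. The share near a gene end was 25.0% with a window of 200 bp and 59.3% with 1000 bp. The share inside genes lay between 80.8% and 83.7% under every alternative run. Boundaries of the second joined list, an alternative chosen after seeing the data, gave 398 sites, 392 of them shared. No paired analysis was possible because the joined values are not tied to labelled libraries. Unknown depth limits every absence to "not called".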
